A study of Mus musculus with 4 samples.

Results

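The Cdx family of the mouse comprises *Cdx1*, *Cdx2* and *Cdx4*, and these 3 genes of the 31053 in the count tables were selected by symbol. Transcripts of single cells from the caudal part of embryos at E8.5 had been counted in droplet libraries, and counts are in UMIs, the molecular identifiers that tag single transcripts. The embryos came from intercrosses of *Grhl3*+/- mice kept on a C57BL/6 background. The groups were wild-type (WT) embryos and *Grhl3*-null embryos, which lack the transcription factor *Grhl3* in every cell from fertilisation onwards. Cells of 5 WT embryos formed 1 pool, cells of 3 *Grhl3*-null embryos formed another, and 2 droplet reactions were run on each pool. The replicate libraries therefore share their embryos, and a p-value here sets 1 pool against another without any measure of the spread between embryos.

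Cdx proteins are homeodomain transcription factors of the ParaHox family, relatives of the Hox genes that pattern the body axis. They are switched on at the posterior end of the embryo by Wnt, Fgf and retinoic acid signals, and they sustain the outgrowth of the axis and activate Hox genes of the trunk. Neuromesodermal progenitors (NMPs) are the posterior cells that give rise to both spinal cord and paraxial mesoderm and are known to need Cdx function, while *Cdx2* also sets intestinal identity in the endoderm.

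Each gene has 3 exons in its longest coding transcript, and no annotated gene overlaps any of them. *Cdx1* (ENSMUSG00000024619) is autosomal, is read from the minus strand and spans 17338 bases. *Cdx2* (ENSMUSG00000029646) lies at chr5:147300805-147307270 on the minus strand of GRCm38, with *Urad* as its nearest neighbour at 7714 bases. *Cdx4* (ENSMUSG00000031326) lies at chrX:103321398-103330592 on the plus strand, with the predicted gene *Gm3931* as its nearest neighbour at 1833 bases and *Chic1* as the nearest coding gene at 25884 bases. *Cdx4* is thus X-linked, whereas the others are autosomal.

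Over the WT clusters the levels of *Cdx2* and *Cdx4* were more alike (Pearson's r = 0.84) than those of any other pair of the family, although they parted in notochord-like, gut-like and SE/NPB-like cells. For this reason the 250 bases upstream of each RefSeq transcript start are shown 5′ to 3′ on the strand of the gene. The *Cdx2* stretch is chr5:147307250-147307499 and the *Cdx4* stretch is chrX:103321148-103321397, both from RefSeq on GRCm38.p6. The GENCODE end of *Cdx2* at 147307270 falls inside the first of them. Capitals mark matches to the motifs searched on both strands.
Cdx2: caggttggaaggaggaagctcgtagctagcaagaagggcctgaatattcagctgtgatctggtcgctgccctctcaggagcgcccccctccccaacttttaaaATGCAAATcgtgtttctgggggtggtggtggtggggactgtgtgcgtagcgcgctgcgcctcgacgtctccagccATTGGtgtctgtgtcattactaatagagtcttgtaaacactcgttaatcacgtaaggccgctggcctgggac
Cdx4: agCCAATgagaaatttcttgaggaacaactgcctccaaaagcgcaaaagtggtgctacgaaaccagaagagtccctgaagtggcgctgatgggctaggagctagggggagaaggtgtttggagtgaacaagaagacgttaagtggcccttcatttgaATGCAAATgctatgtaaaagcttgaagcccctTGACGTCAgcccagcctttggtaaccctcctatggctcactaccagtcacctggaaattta
The motifs were chosen after the sequences had been seen. The octamer ATGCAAAT, the letters bound by POU factors, occurred once in each stretch, from 147 to 140 bases before the *Cdx2* start and from 93 to 86 bases before the *Cdx4* start. It occurs in 1.60% of the 32851 RefSeq promoters of 27025 genes. A CCAAT box, present in 33.9% of promoters, lay on the minus strand of the *Cdx2* stretch (72 to 68 bases before the start, printed as ATTGG) and on the plus strand of the *Cdx4* stretch (248 to 244 bases before the start). The cyclic AMP response element TGACGTCA, in 1.55% of promoters, was found in *Cdx4* alone, from 61 to 54 bases before the start. No match to CTTTGA (Tcf and Lef core, 13.8% of promoters), TTTATG (10.8%) or TTTATT (18.1%), both letters of Cdx sites, was found in either window, and no matches overlapped.

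After filtering, 20198 cells remained, between 4781 and 5459 per library, with 209833502 to 226723903 UMIs per library and medians of 33391 to 38070 UMIs per cell. Pairs of libraries shared between 7 and 16 barcodes. *Grhl3* itself was measured at 33.5 and 26.7 CPM in the class of surface ectoderm and neural plate border (SE/NPB-like cells) of the WT libraries and at 0.235 and 0.372 CPM in that of the *Grhl3*-null libraries. The cells fell into 17 clusters, computed with the Cdx genes left out of the variable features and of the naming lists. Markers named 14 clusters, which gave 13 classes, and 3 clusters stayed unnamed and are called here after their leading genes *Prrx1*, *Lefty2* and *Tbx4*. The *Lefty2*-led cluster was shallow, with a median of 16245 UMIs per cell. Male cells made up 26.5% and 27.0% of the sexed cells in the WT libraries and 55.6% and 57.5% in the *Grhl3*-null libraries. The pre-somitic mesoderm-like class held 503 and 484 cells in the WT libraries, of which 0.405% and 0.419% of the sexed cells were male, but 3 cells in each *Grhl3*-null library, so it was not compared between genotypes.

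All 3 genes were highest in the NMP-like class. Levels are sums of a class within 1 library, scaled to CPM (UMIs of the gene per 1000000 UMIs), and they describe both the number of expressing cells and the amount of RNA per cell, which a sum cannot tell apart. Of all WT UMIs of each gene, the NMP-like class held 42.2% for *Cdx1*, 31.1% for *Cdx2* and 30.7% for *Cdx4*. The study's own marker table, drawn from these samples, lists *Cdx1* and *Cdx2* for NMPs and *Cdx4* for lateral plate mesoderm, so the levels across classes are a description and were not tested.

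*Cdx1* was the most concentrated in NMP-like cells. It stood at 157 CPM in both WT libraries there, followed by the *Lefty2*-led cluster at 120 and 115 CPM and, apart from these, by somitic mesoderm-like cells at 79.7 and 76.3 CPM. SE/NPB-like cells had 71.2 and 83.0 CPM, a range that overlapped that of the somitic cells. The *Prrx1*-led cluster (50.8 and 44.6 CPM), paraxial mesoderm-like cells (40.9 and 46.0 CPM), notochord-like cells (35.8 and 44.7 CPM) and neuroepithelium-like cells (37.7 and 38.3 CPM) formed a chain in which each class overlapped the next. Intermediate mesoderm-like cells stood below them at 24.8 and 22.2 CPM and gut-like cells at 16.8 and 17.6 CPM. The lowest levels, in endothelium-like and erythroid-like cells, lay between 1.51 and 7.49 CPM.

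*Cdx2*, the member known for intestinal identity, was the most widespread across germ layers. NMP-like cells had 393 and 411 CPM, notochord-like cells 344 and 294 CPM, SE/NPB-like cells 285 and 304 CPM, and gut-like cells 265 and 261 CPM. NMP-like cells stood apart from all others, and the notochord and ectoderm ranges overlapped. The *Lefty2*-led (222 and 260 CPM) and *Prrx1*-led (226 and 248 CPM) clusters overlapped as well, above somitic mesoderm-like (206 and 212 CPM) and neuroepithelium-like cells (195 and 193 CPM). Pre-somitic cells followed at 167 and 168 CPM. Paraxial mesoderm-like cells, which have left the posterior growth zone, were low at 47.8 and 56.9 CPM, intermediate mesoderm-like cells had 29.95 and 39.8 CPM, and erythroid-like cells had 29.7 and 18.6 CPM.

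*Cdx4* had its second maximum in mesoderm rather than in notochord or ectoderm. After NMP-like cells at 427 and 428 CPM came the *Prrx1*-led cluster at 351 and 368 CPM, somitic mesoderm-like cells at 294 and 290 CPM, the *Lefty2*-led cluster at 230.0 and 247 CPM and pre-somitic cells at 229 CPM in both libraries. Neuroepithelium-like (173 and 176 CPM), gut-like (169 and 172 CPM) and SE/NPB-like cells (145 and 130.2 CPM) came next, and none of these 8 classes overlapped its neighbour. In notochord-like cells *Cdx4* reached 63.2 and 83.8 CPM. That class ranked second of 16 for *Cdx2* and twelfth for *Cdx4*. The *Prrx1*-led cluster, whose leading genes *Prrx1*, *Hand2*, *Foxf1* and *Osr1* are genes of lateral mesoderm, held 20.8% of the WT UMIs of *Cdx4*, 14.8% of those of *Cdx2* and 10.3% of those of *Cdx1*.

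**Figure D1:**
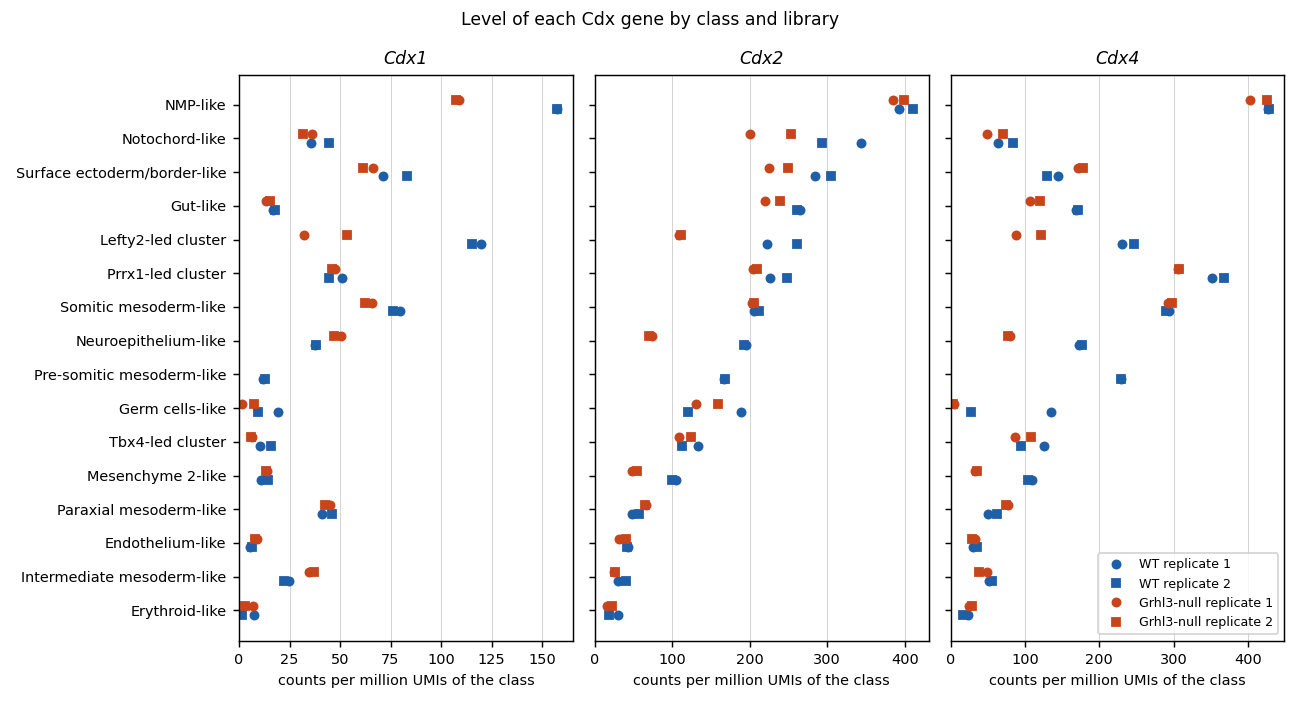
Level of *Cdx1*, *Cdx2* and *Cdx4* (CPM, 1 panel per gene) in each class, with 1 point per library (blue WT, orange *Grhl3*-null, circle replicate 1, square replicate 2) and classes with under 5 cells in a library not drawn. NMP-like cells are highest for every gene, and the orange points lie far to the left of the blue ones for *Cdx2* and *Cdx4* in neuroepithelium-like cells (73.4 and 70.0 against 195 and 193 CPM for *Cdx2*).

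Shares of cells with a UMI were compared after each cell had been thinned to 7500 UMIs. Among NMP-like cells, *Cdx1* was detected in 61.7% and 57.7% of WT cells and in 51.3% and 57.9% of *Grhl3*-null cells, *Cdx2* in 91.3% to 92.9% over the 4 libraries and *Cdx4* in 91.1% to 95.1%. A UMI of all 3 genes was found in 52.5% and 49.4% of WT and 43.0% and 51.0% of *Grhl3*-null NMP-like cells. Unthinned, these shares were 90.7%, 91.1%, 94.9% and 95.1%. Cells of a type that should lack the genes gave the background: among erythroid-like cells (median 41306 UMIs, against 37286.5 in NMP-like cells) thinned shares with *Cdx2* were 10.3%, 10.0%, 1.67% and 8.96%, and no *Cdx1* was found in 3 of the 4 libraries. In notochord-like cells 79.5% to 89.1% of cells had *Cdx2*, but 28.1% and 33.3% of WT and 9.09% and 14.5% of *Grhl3*-null cells had *Cdx4*. The *Grhl3*-null cells of this class numbered 44 and 55. Its *Cdx4* levels overlapped, at 63.2 and 83.8 CPM in WT and 49.2 and 70.8 CPM in *Grhl3*-null, and did not pass the genotype test described below. *Cdx1* and *Cdx2* were both found in NMP-like cells about as often as their single shares imply, in 56.8% and 54.1% of WT cells against a product of the single shares of 56.9% and 53.6%.

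Within the *Prrx1*-led cluster, *Cdx2* and *Cdx4* were correlated from cell to cell, and *Cdx1* was weakly negatively correlated with both. Pearson's r of *Cdx2* with *Cdx4*, on log counts per 10000 UMIs, was 0.70 and 0.72 in the WT libraries (689 and 648 cells) and 0.78 and 0.77 in the *Grhl3*-null libraries (820 and 768 cells). That of *Cdx1* with *Cdx2* was -0.38, -0.32, -0.41 and -0.47 in the same order. After thinning every cell to 7500 UMIs, r of *Cdx2* with *Cdx4* was 0.40, 0.29, 0.45 and 0.44, and that of *Cdx1* with *Cdx2* was -0.14, -0.06, -0.17 and -0.16. These are correlations over cells of 1 library each, which share a library and a depth, and they are given as a description. In NMP-like cells r between *Cdx2* and *Cdx4* lay between 0.28 and 0.47 unthinned. After thinning it was 0.17 and 0.14 in WT and 0.10 and 0.13 in *Grhl3*-null.

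Levels of the family were also read along the body axis, from the Hox genes. Each cell was assigned to the most posterior Hox paralogue group of which it had a UMI after thinning to 7500 UMIs (1 to 4 or none, 5 to 8, 9, or 10 to 13), and paralogue groups with higher numbers are known to mark more posterior levels. Hox genes are known targets of Cdx proteins, so the grouping is not independent of the family. From the Hox 5 to 8 group over Hox 9 to Hox 10 to 13, *Cdx1* in the *Prrx1*-led cluster fell from 85.4 and 93.9 CPM over 57.3 and 46.9 CPM to 15.9 and 21.9 CPM in WT. *Cdx2* went from 63.8 and 93.9 CPM over 236 and 254 CPM to 295 and 306 CPM. *Cdx4* went from 69.2 and 151 CPM over 395 and 402 CPM to 397 and 408 CPM. The most anterior cells of the cluster, with Hox 1 to 4 or none (21 and 19 WT cells), had *Cdx1* at 72.8 and 54.5 CPM, below the Hox 5 to 8 group, with *Cdx2* at 42.01 and 34.8 CPM and *Cdx4* at 57.4 and 36.3 CPM. From Hox 5 to 8 on, the *Grhl3*-null libraries had the same order, with 85.0 and 83.9, 48.5 and 45.9, and 20.2 and 15.7 CPM for *Cdx1*, and 27.0 and 26.2, 212 and 221, and 294 and 310 CPM for *Cdx2*. Their *Cdx4* was 45.0 and 41.3, 337 and 338, and 368 and 392 CPM.

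Neuroepithelium-like cells, the future spinal cord, differed in the same directions between Hox 9 and Hox 10 to 13. In WT, *Cdx1* was 48.1 and 49.0 CPM in the Hox 9 group and 16.8 and 14.9 CPM in the Hox 10 to 13 group, whereas *Cdx2* was 103 and 98.9 CPM in the first and 358 CPM in both libraries in the second. *Cdx4* was 127 and 125 CPM and then 258 and 269 CPM. Pre-somitic WT cells had 70.7 and 66.1 CPM of *Cdx2* with Hox 9 and 195 and 197 CPM with Hox 10 to 13, and *Cdx4* there went from 64.7 and 74.1 to 277 and 274 CPM. Their *Cdx1* did not fall, with 10.7 and 14.2 and then 12.3 and 12.4 CPM. NMP-like cells with Hox 5 to 8 (38 and 36 WT cells) had *Cdx1* at 230.0 and 248 CPM, against 160 and 163 CPM with Hox 9 and 94.3 and 64.7 CPM with Hox 10 to 13. Their *Cdx2* ran the other way, with 299.5 and 300.4 CPM, then 403 and 417 CPM, then 392 and 428 CPM, the last 2 groups overlapping.

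**Figure D2:**
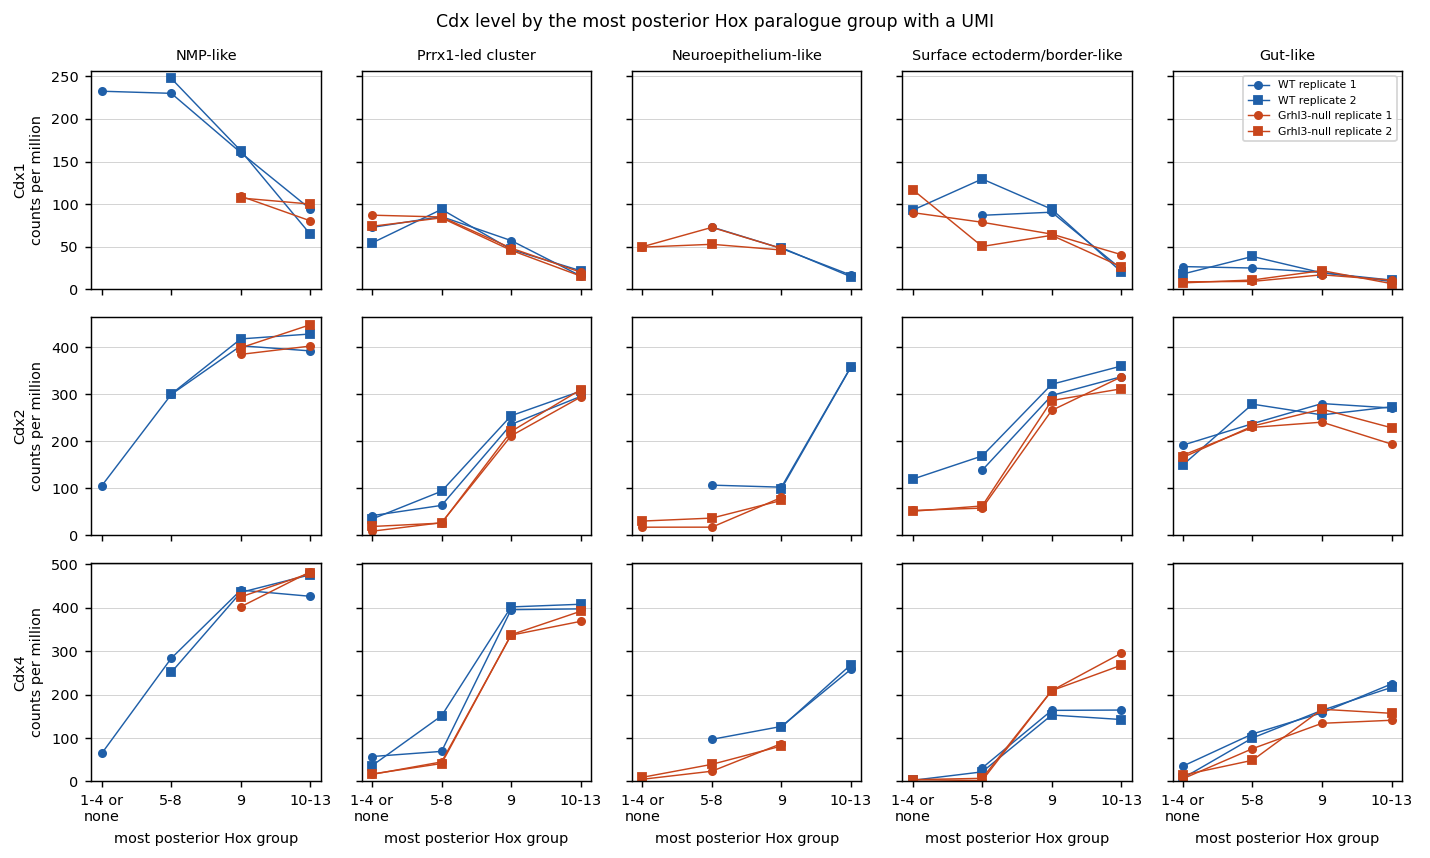
Level of the 3 Cdx genes (rows, CPM) in cells of 5 classes (columns) grouped by the most posterior Hox paralogue group with a UMI after thinning to 7500 UMIs, with 1 line per library (blue WT, orange *Grhl3*-null) and groups of at least 10 cells. From Hox 5 to 8 to Hox 10 to 13, *Cdx1* falls in the *Prrx1*-led cluster (85.4 and 93.9 to 15.9 and 21.9 CPM in WT) while *Cdx2* and *Cdx4* rise.

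NMP-like cells also differed in their Cdx levels by the markers that tell the mesodermal from the neural side of the population, *T* (brachyury) and *Sox2*. Detection of the markers was read after thinning each cell to 7500 UMIs, against a class median of 37286.5 UMIs. A marker that was not found at that depth can still be present in the cell. Cells with *T* alone were 33.8% to 35.7% of the class over the 4 libraries. Cells with both were 28.9% to 32.7% and cells with *Sox2* alone 24.3% to 26.3%. In WT, *Cdx1* was 110 and 117 CPM with *T* alone, 141 and 144 CPM with both, and 223 and 217 CPM with *Sox2* alone. *Cdx4* was ordered the other way, with 533 and 535 CPM, 465 and 467 CPM, and 301 and 290.4 CPM. *Cdx2* was 417 and 431 CPM with *T* alone, 438 and 458 CPM with both and 331 and 357 CPM with *Sox2* alone. In the *Grhl3*-null libraries the order held for *Cdx4* (482 and 484, 412 and 452, 313 and 324 CPM), while *Cdx1* was flatter, with 91.1 and 95.7 CPM, 110.0 and 113 CPM, and 125 and 119 CPM. The gap of *Cdx1* between the genotypes was thus widest in cells with *Sox2* alone.

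In the gut, sub-clusters with like levels of *Cdx2* differed widely in *Cdx4*. The larger gut-like cluster (1205 cells) was clustered again, which gave 7 sub-clusters, described without a test because these cells define them. The smaller gut-like cluster, led by *Fabp1*, *Krt19* and *Gpx2* (102 cells), was left out of this step. A sub-cluster led by *Cyp26a1*, *Fgf17*, *Hoxc10* and T (370 cells) had 314 and 304 CPM of *Cdx2* and 260.1 and 260.8 CPM of *Cdx4* in WT, and 278 and 287 CPM and 216 and 244 CPM in *Grhl3*-null. A sub-cluster led by *Kcnk2* and *Sema3c* (326 cells) kept *Cdx2* at 244, 252, 240.4 and 236 CPM, but its *Cdx4* was 115 and 83.3 CPM in WT and 31.6 and 29.6 CPM in *Grhl3*-null. *Cdx4* was detected there in 72.5% and 76.5% of WT cells (80 and 51 cells) and in 37.0% and 35.8% of *Grhl3*-null cells (100 and 95 cells). Hox genes differed in these cells as well, with Hoxc9 at 59.5 and 56.0 CPM in WT and 16.9 and 15.3 CPM in *Grhl3*-null, and *Hoxa9* at 85.5 and 65.0 against 40.4 and 31.5 CPM. Another, led by *Trap1a*, *Nav3* and *Rhox5* (110 cells), had the highest *Cdx2* of these sub-clusters in both genotypes (356 and 322 CPM in WT, 316 and 334 CPM in *Grhl3*-null) with *Cdx4* at 21.3 to 38.1 CPM. *Cdx1* was at most 38.2 CPM in the sub-clusters with at least 10 cells in each library.

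**Figure D3:**
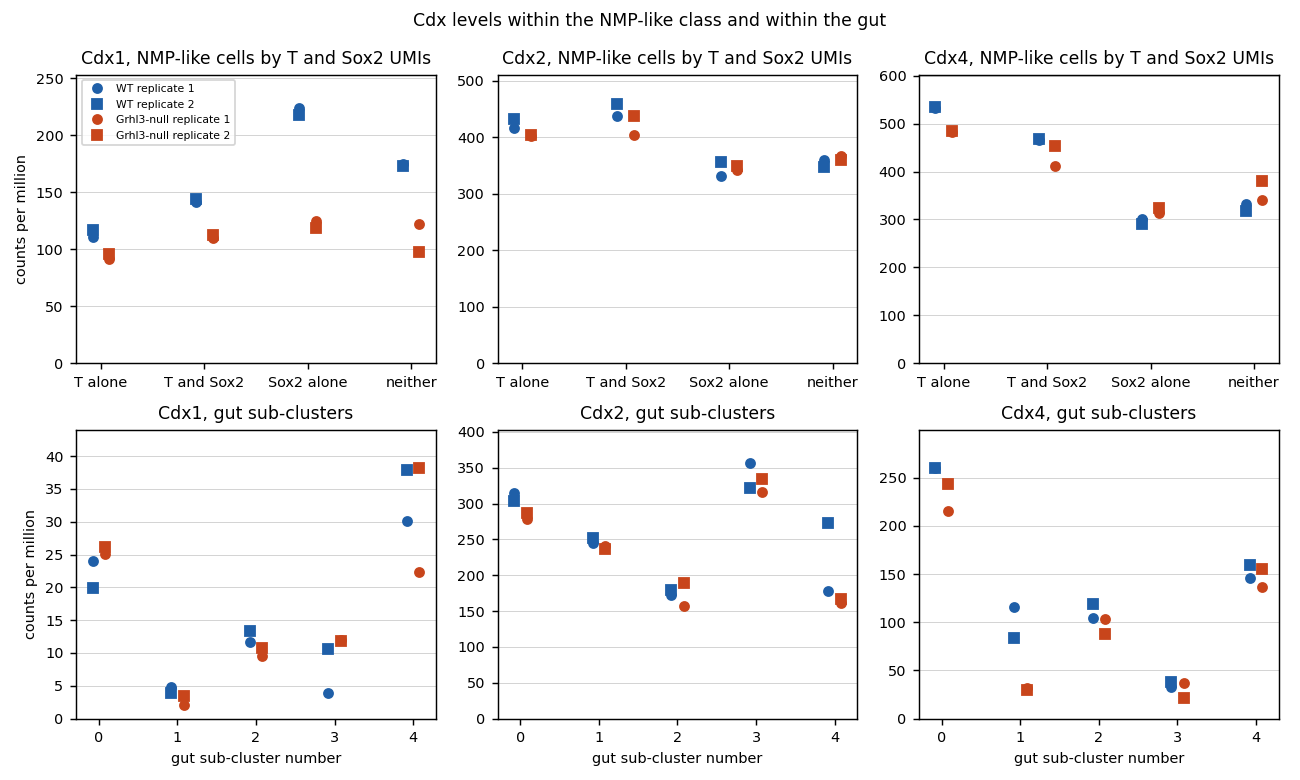
Level of the Cdx genes (CPM) in NMP-like cells and in 5 gut sub-clusters, with 1 point per library (blue WT, orange *Grhl3*-null). NMP-like cells are grouped by the detection of *T* and *Sox2* after thinning to 7500 UMIs. *Cdx1* is highest in cells with *Sox2* alone (223 and 217 CPM in WT) and *Cdx4* in cells with *T* alone (533 and 535 CPM), and in gut sub-cluster 1 *Cdx4* of the *Grhl3*-null libraries (31.6 and 29.6 CPM) lies under that of the WT libraries (115 and 83.3 CPM).

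The genes whose WT level over 15 clusters was most like that of each member were ranked by Pearson's r of log2(CPM + 5) among 7724 genes. *Cdx4* was closest to *Evx1os* (r = 0.94) and *Evx1* (0.92), an antisense transcript and the posterior homeobox gene beside it, whose reads can be told apart only by strand, and to *Rarg* (0.91), a retinoic acid receptor. *Cdx2* was closest to *Wnt5b* (0.89), *Evx1os* (0.89), *Aspscr1* (0.88), *Evx1* (0.88) and *Rarg* (0.88). *Cdx1* was closest to *Pou5f1* (0.92), the pluripotency gene that is still on in posterior progenitors at this stage, *Pycr1* (0.90), *Nr6a1* (0.88), which represses *Pou5f1* and times the trunk, *Cyb5r4* (0.87) and *Rcc2* (0.86). *Cdx2* and *Cdx4* had r = 0.84 with each other, and *Cdx1* had 0.68 with *Cdx2* and 0.69 with *Cdx4*. The points are clusters of the same 2 libraries, and no test was made.

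The comparison of the genotypes asked whether loss of *Grhl3* was accompanied by a change of Cdx expression in each class. UMIs summed per class and library were tested with edgeR's quasi-likelihood test, and a gene passed at a Benjamini-Hochberg adjusted p under 0.05 over all genes of the class. All 3 genes passed the filter on low counts in each of the 14 classes tested, which makes 42 pairs of gene and class. Of these, 23 passed, 5 with a higher and 18 with a lower level in *Grhl3*-null. Over all genes and classes 11.8% of the tests passed, 5.49% higher and 6.32% lower. By gene, 8 of 14 classes passed for *Cdx1* (2 higher, 6 lower), 8 for *Cdx2* (1 higher, 7 lower) and 7 for *Cdx4* (2 higher, 5 lower).

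*Cdx2* and *Cdx4* were much lower in the *Grhl3*-null neuroepithelium-like cells, where 22.9% of all genes passed. *Cdx2* was 195 and 193 CPM in WT and 73.4 and 70.0 CPM in *Grhl3*-null, a log2 fold change of -1.46 ± 0.04 (SE; adjusted p = 5.0e-12). *Cdx4* was 173 and 176 CPM against 80.0 and 77.0 CPM (-1.18 ± 0.04, adjusted p = 3.5e-11). *Cdx1* went the other way, from 37.7 and 38.3 to 50.3 and 47.1 CPM (0.33 ± 0.05, adjusted p = 2.3e-04), and no library of one genotype overlapped those of the other for any of the 3 genes. In the same class 35.5% and 38.1% of WT cells but 0.992% and 0.612% of *Grhl3*-null cells carried a UMI of Hox 10 to 13, and male cells were 12.1% and 15.2% of the sexed WT cells but 82.9% and 84.8% of the *Grhl3*-null cells. The cells of the pools thus differed in axial position and in embryos as well as in genotype, and these cannot be told apart in the class as a whole.

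Genes around the Cdx family moved in the same class. Of 18 tested genes of the signals upstream of Cdx, 4 were higher and 9 lower (median log2 fold change -0.16, against 0.00 over all genes). *Fgf17* fell from 85.1 to 11.5 CPM (-2.91 ± 0.06), *Fgf8* from 90.5 to 18.4 CPM (-2.32 ± 0.06) and *Cyp26a1*, which degrades retinoic acid, from 50.4 to 12.8 CPM (-1.9996 ± 0.10). *Aldh1a2*, which makes retinoic acid, rose from 25.9 to 67.3 CPM (1.35 ± 0.07) and its receptor gene *Rarb* from 9.96 to 21.4 CPM (1.08 ± 0.08), and each of these genes passed. None of 11 caudal progenitor genes was higher and 8 were lower (median -0.96), *T* among them. Of the Hox genes, 0 of 4 tested in groups 10 to 13 were higher and 4 lower, 1 of 15 in groups 5 to 9 was higher and 12 lower, and 1 of 12 in groups 1 to 4 was higher and 7 lower. *Hoxc10* fell from 133 to 0.364 CPM and *Hoxa9* from 114 to 53.8 CPM (-1.10 ± 0.04), while *Hoxb9* rose from 340 to 397 CPM (0.20 ± 0.04). Of the Cdx target genes outside Hox, 3 of 6 were lower and 1 was higher, *Pax3*, a dorsal neural tube gene, from 70.1 to 130 CPM (0.87 ± 0.05).

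NMP-like cells, which held the largest share of all Cdx transcripts, differed in *Cdx1*, and no difference in *Cdx2* or *Cdx4* passed the test. *Cdx1* was 157 CPM in both WT libraries and 109 and 107 CPM in the *Grhl3*-null libraries (-0.56 ± 0.03, adjusted p = 2.6e-06), in a class in which 18.8% of genes passed. *Cdx2* was 393 and 411 CPM against 385 and 399 CPM (-0.05 ± 0.03, adjusted p = 0.28), with overlapping libraries. *Cdx4* was 427 and 428 CPM against 403 and 426 CPM (-0.06 ± 0.03, adjusted p = 0.20). Both calls depended on a setting, since with cells clustered on log-normalised counts *Cdx2* and *Cdx4* passed at -0.22 each, and *Cdx4* passed in male cells at -0.25 (adjusted p = 1.1e-03) and in female cells at 0.12 (adjusted p = 0.027). Of 19 upstream signal genes, 2 were higher and 4 lower. *Wnt8a*, a Wnt ligand of the posterior epiblast, fell from 12.5 to 4.70 CPM (-1.41 ± 0.09), and *Sp5*, a target of Wnt signalling, from 146 to 113 CPM (-0.39 ± 0.05). *Wnt3a* fell from 47.9 to 42.6 CPM (-0.19 ± 0.04), and *Aldh1a2* rose from 8.21 to 13.5 CPM (0.71 ± 0.12). Among Hox genes of groups 5 to 9, 7 of 15 were higher and 2 lower (median 0.22), with *Hoxc8* at 318 and then 406 CPM (0.34 ± 0.03) and *Hoxb9* at 316 and then 398 CPM (0.32 ± 0.03). *Hoxc10* fell from 10.9 to 1.41 CPM (-2.95 ± 0.12), 1 of 4 lower genes of the 6 tested in groups 10 to 13.

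Somitic mesoderm-like cells, next to NMPs in the paraxial lineage, also passed for *Cdx1* alone. *Cdx1* was 79.7 and 76.3 CPM in WT and 66.0 and 62.1 CPM in *Grhl3*-null (-0.29 ± 0.04, adjusted p = 1.9e-03), with 11.6% of genes passing in the class. *Cdx2* was 206 and 212 CPM against 203 and 206 CPM (-0.04 ± 0.03, adjusted p = 0.53), and *Cdx4* was 294 and 290 CPM against 292 and 298 CPM (0.01 ± 0.03, adjusted p = 0.88). The lower *Cdx1* was that of female cells, with 87.1 and 86.5 against 52.5 and 48.8 CPM (-0.78 ± 0.06), whereas in male cells *Cdx1* was higher, with 73.5 and 63.0 against 86.4 and 81.9 CPM (0.31 ± 0.08, adjusted p = 0.023). *Cdx4* passed in female cells alone at 0.13. Paraxial mesoderm-like cells differed the other way, with 21.7% of genes passing. *Cdx2* rose from 47.8 and 56.9 to 66.0 and 65.4 CPM (0.30 ± 0.06, adjusted p = 2.0e-03) and *Cdx4* from 50.0 and 62.5 to 77.1 and 74.3 CPM (0.40 ± 0.07, adjusted p = 8.6e-04), while *Cdx1* was 40.9 and 46.0 against 45.3 and 42.8 CPM (-0.01 ± 0.05). In this class 8 of 12 caudal progenitor genes were higher and 1 lower (median 0.53), with *Sox2* at 16.4 and then 34.8 CPM (1.06 ± 0.08), and the segmentation gene *Mesp2* fell from 33.8 to 8.73 CPM (-1.996 ± 0.21). The class was 13.03% and 14.8% male in WT and 82.8% and 84.4% male in *Grhl3*-null. In sexed cells the libraries of the genotypes overlapped for both genes. *Cdx2* was 33.3 and 33.1 against 23.6 and 37.6 CPM in female cells, and 19.6 and 36.4 against 43.7 and 31.7 CPM in male cells. *Cdx4* was 29.6 and 35.7 against 30.8 and 44.4 CPM in female cells, and 17.0 and 53.6 against 50.5 and 41.9 CPM in male cells. Of the 4738 *Cdx2* UMIs in *Grhl3*-null, 1109 were in male and 192 in female cells, and the rest in cells without a sex call.

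*Cdx2* and *Cdx4* were lower in Mesenchyme 2-like cells and in the *Prrx1*-led and *Lefty2*-led clusters. Neither gene passed in intermediate mesoderm-like cells or in the *Tbx4*-led cluster. Libraries of the latter overlapped, with *Cdx2* at 133 and 113 CPM in WT and 109 and 124 CPM in *Grhl3*-null. Its *Cdx4* was 125 and 95.0 against 87.3 and 108 CPM. Mesenchyme 2-like cells, named by the study's second mesenchymal list and led by *Col3a1*, *Nkx2-3* and *Hlx*, had *Cdx4* at 109 and 104 CPM in WT and 32.7 and 36.1 CPM in *Grhl3*-null (-1.63 ± 0.06, adjusted p = 9.9e-12). *Cdx2* was 105 and 100.1 CPM against 48.1 and 54.5 CPM (-0.99 ± 0.06, adjusted p = 4.5e-09), and *Cdx1* was 10.9 and 14.1 CPM against 13.6 and 13.4 CPM (0.12 ± 0.12). Of the sexed cells of this class 14.4% and 15.7% were male in WT and 73.8% and 71.9% in *Grhl3*-null. *Cdx4* was lower in either sex (-1.20 in male and -1.19 in female cells). *Cdx2* was 128 and 117 against 34.5 and 36.7 CPM in male cells (-1.78 ± 0.09) but 95.0 and 93.0 against 77.2 and 88.6 CPM in female cells, which did not pass (-0.15 ± 0.07, adjusted p = 0.13). Here 20.4% of all genes passed, cells with Hox 10 to 13 were 48.8% and 51.9% of WT and 7.52% and 6.67% of *Grhl3*-null cells, and 10 of 17 upstream signal genes were lower and 2 higher, among them *Aldh1a2*, from 12.7 to 45.2 CPM (1.83 ± 0.08). *Evx1*, the gene that ran closest to *Cdx4* across classes after its antisense partner, fell from 20.5 to 3.83 CPM (-2.42 ± 0.12). The *Prrx1*-led cluster changed less, with *Cdx4* at 351 and 368 CPM against 306 and 307 CPM (-0.22 ± 0.03, adjusted p = 6.4e-04) and *Cdx2* at 226 and 248 CPM against 205 and 209 CPM (-0.18 ± 0.04, adjusted p = 0.010), where 8.94% of genes passed. Both of these differences passed in male cells (-0.41 and -0.31) and neither did in female cells (-0.02 and -0.04). Its *Cdx1* was 50.8 and 44.6 CPM against 47.4 and 46.0 CPM (-0.02 ± 0.05), while the sexes differed in opposite directions. In female cells *Cdx1* went from 66.4 and 61.9 to 41.2 and 39.3 CPM (-0.67 ± 0.05, adjusted p = 1.3e-08) and in male cells from 36.4 and 27.8 to 55.4 and 53.0 CPM (0.76 ± 0.09, adjusted p = 1.6e-06). All 3 genes were lower in the shallow *Lefty2*-led cluster, in which 3.57% of genes passed: *Cdx1* at 120 and 115 against 32.1 and 53.3 CPM (-1.45 ± 0.15, adjusted p = 5.4e-06), *Cdx2* at 222 and 260 against 108 and 111 CPM (-1.12 ± 0.10) and *Cdx4* at 230.0 and 247 against 88.5 and 121 CPM (-1.17 ± 0.11). Few of its cells could be sexed, 7 male and 11 female, and 6 male and 3 female, in the WT libraries, and 11 and 3, and 16 and 4, in the *Grhl3*-null libraries, so its make-up by sex is not known.

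The SE/NPB-like class, which held most of the *Grhl3* signal, split the family. *Cdx2* was 285 and 304 CPM in WT and 225 and 249 CPM in *Grhl3*-null (-0.35 ± 0.06, adjusted p = 2.5e-04) and *Cdx1* was 71.2 and 83.0 CPM against 66.3 and 61.2 CPM (-0.31 ± 0.07, adjusted p = 6.4e-03). *Cdx4* was higher, with 145 and 130.2 CPM in WT and 171 and 178 CPM in *Grhl3*-null (0.30 ± 0.06, adjusted p = 1.1e-03), and 12.9% of all genes passed. Of 6 Cdx target genes outside Hox, 4 were higher and none lower (median 0.37). *Cyp26a1* rose from 42.6 to 90.6 CPM (1.05 ± 0.08) and *Fgf8* from 81.9 to 117 CPM (0.47 ± 0.06), whereas *Fgf17* fell from 106 to 88.5 CPM (-0.30 ± 0.06). Transcripts of red blood cells set 1 library apart here. The 7 haemoglobin genes summed to 277 CPM in WT replicate 1, 26.96 CPM in WT replicate 2, and 31.7 and 33.7 CPM in the *Grhl3*-null libraries. Without WT replicate 1 the differences were -0.41 for *Cdx2*, -0.42 for *Cdx1* and 0.38 for *Cdx4*, and all 3 passed. The immediate early gene *Fosb* was 4.93 and 4.08 CPM in WT and 0.940 and 0.652 CPM in *Grhl3*-null. Its part in the Cdx differences was not tested.

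In gut-like cells all 3 genes were lower in *Grhl3*-null, where 19.6% of genes passed. *Cdx4* was 169 and 172 CPM in WT and 106 and 120 CPM in *Grhl3*-null (-0.63 ± 0.06, adjusted p = 7.4e-08), *Cdx2* was 265 and 261 CPM against 220 and 239 CPM (-0.23 ± 0.05, adjusted p = 1.6e-03), and *Cdx1* was 16.8 and 17.6 CPM against 13.5 and 15.4 CPM (-0.29 ± 0.10, adjusted p = 0.046). Of the lists, 7 of 8 tested Hox genes of groups 10 to 13, 11 of 17 upstream signal genes (3 were higher, median -0.38), 9 of 11 caudal progenitor genes and 6 of 6 Cdx target genes outside Hox were lower. Lists of more anterior genes were lower as well, with 9 of 12 Hox genes of groups 1 to 4 and 4 of 4 foregut genes (median -0.54). Of the Hox genes of groups 5 to 9, 8 of 15 were lower and 1 was higher. *Hoxa10* fell from 67.2 to 24.3 CPM (-1.50 ± 0.08) and *Fgf8* from 209 to 143 CPM (-0.58 ± 0.07). All 8 visceral endoderm genes, a list written in an earlier analysis after such genes had been seen to differ, were higher, with *Ttr* at 209 and then 499 CPM (1.22 ± 0.10) and *Apob* at 20.2 and then 58.8 CPM (1.505 ± 0.10). Cells with Hox 10 to 13 were 40.5% and 49.2% of WT and 17.5% and 16.1% of *Grhl3*-null gut-like cells.

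In the remaining classes single genes passed. *Cdx2* fell in notochord-like cells from 344 and 294 to 200.2 and 254 CPM (-0.48 ± 0.10, adjusted p = 5.3e-03), where 3.53% of genes passed. Male cells had 358 and 312 against 190 and 177 CPM, with 16 and 23 *Grhl3*-null cells. Female cells had 334 and 320 against 286 and 383 CPM, which overlapped, with 19 and 21 *Grhl3*-null cells. The sexes were not tested apart in this class. *Cdx1* rose in intermediate mesoderm-like cells from 24.8 and 22.2 to 34.8 and 37.4 CPM (0.63 ± 0.13, adjusted p = 6.2e-03), where 3.06% of genes passed. Of the sexed cells of that class, 15.1% and 20.4% were male in WT and 77.0% and 76.5% in *Grhl3*-null. Its *Cdx1* was 20.3 and 16.2 against 31.2 and 27.5 CPM in female cells. In male cells it was 45.3 and 29.65 against 27.0 and 29.75 CPM, which overlapped. Of the 314 *Cdx1* UMIs of the class in *Grhl3*-null, 143 were in male and 45 in female cells. *Cdx1* fell in the *Tbx4*-led cluster from 10.5 and 15.7 to 6.68 and 5.92 CPM (-0.99 ± 0.24, adjusted p = 0.018), where 4.75% of genes passed. No Cdx gene passed in endothelium-like or erythroid-like cells, where 0.545% and 0.443% of genes did. By edgeR the unadjusted p there was under 0.05 for *Cdx2* alone, at 0.036 in endothelium-like and 0.038 in erythroid-like cells, and DESeq2 passed none of the genes in either class.

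**Figure D4:**
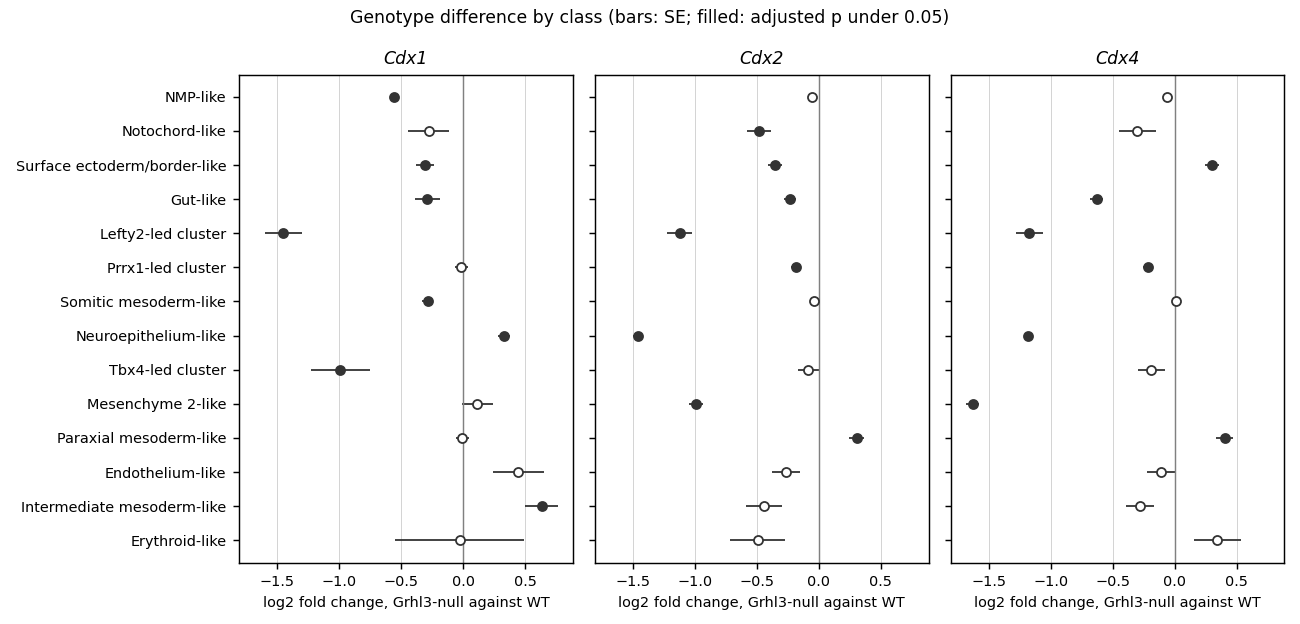
Log2 fold change of *Grhl3*-null over WT for each Cdx gene in the 14 classes tested, with bars of 1 SE, filled points where the adjusted p was under 0.05 and open points elsewhere. *Cdx2* and *Cdx4* fall the most in neuroepithelium-like, Mesenchyme 2-like and *Lefty2*-led cells, while in NMP-like and somitic mesoderm-like cells *Cdx1* alone passed.

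Summed over all filtered cells the 3 genes had nearly the same difference. *Cdx1* was 61.2 and 61.9 CPM in WT and 50.8 and 47.6 CPM in *Grhl3*-null (-0.35 ± 0.03), *Cdx2* was 208 and 217 CPM against 172 and 173 CPM (-0.34 ± 0.03), and *Cdx4* was 226 and 233 CPM against 186 and 183 CPM (-0.34 ± 0.02). All 3 passed, as did 35.5% of all genes. These sums also carry the different make-up of the pools, including the pre-somitic cells of WT. Whether a class differed from NMP-like cells in its genotype difference was tested as an interaction. Of 39 such tests, 19 passed (7 for *Cdx1*, 6 each for *Cdx2* and *Cdx4*), against 4.13% of all genes and classes. By class the share of all genes that passed this test was 9.98% in neuroepithelium-like, 9.34% in Mesenchyme 2-like, 7.36% in gut-like, 6.94% in SE/NPB-like, 4.72% in *Tbx4*-led, 4.64% in paraxial mesoderm-like, 3.24% in *Prrx1*-led and 2.56% in intermediate mesoderm-like cells. It was 1.62% in endothelium-like, 1.05% in *Lefty2*-led, 0.995% in notochord-like, 0.876% in erythroid-like and 0.389% in somitic mesoderm-like cells, and in the last of these, as in erythroid-like and *Tbx4*-led cells, no Cdx gene passed.

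Because the pools differed in axial position, the genotypes were compared again among cells of 1 Hox group, an alternative chosen after the data had been seen. Among neuroepithelium-like cells of the Hox 9 group (320 and 285 WT, 524 and 569 *Grhl3*-null cells) *Cdx2* was 103 and 98.9 CPM in WT and 80.6 and 74.3 CPM in *Grhl3*-null (-0.39 ± 0.05, adjusted p = 1.5e-05). *Cdx4* was 127 and 125 CPM against 87.1 and 81.6 CPM (-0.59 ± 0.05, adjusted p = 9.6e-09), and *Cdx1* was 48.1 and 49.0 CPM against 48.1 and 46.2 CPM (-0.05 ± 0.05, adjusted p = 0.68). Both differences that remained were smaller than in the whole class, and the higher *Cdx1* was not seen. Mesenchyme 2-like cells with Hox 9 gave -0.45 ± 0.09 for *Cdx2* and -0.60 ± 0.09 for *Cdx4* (adjusted p = 5.7e-03 and 2.0e-04), also smaller than over the class.

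Other classes kept or changed their differences within a Hox group. Gut-like cells with Hox 9 had *Cdx4* at 158 and 164 CPM in WT and 134 and 166 CPM in *Grhl3*-null (-0.12 ± 0.07, adjusted p = 0.46), with overlapping libraries, while those with Hox 10 to 13 had 224 and 216 CPM against 141 and 157 CPM (-0.58 ± 0.08, adjusted p = 7.8e-04). NMP-like cells with Hox 9 kept the lower *Cdx1* (-0.59 ± 0.03, adjusted p = 2.0e-06), and SE/NPB-like cells with Hox 9 kept the higher *Cdx4* (164 and 153 against 209 CPM in both libraries, 0.37 ± 0.06, adjusted p = 8.3e-04). With Hox 10 to 13 the latter was 164 and 143 against 295 and 267 CPM (0.86 ± 0.10), but with Hox 5 to 8, at 29 to 37 cells per library, it was 31.1 and 22.1 against 2.07 and 7.20 CPM (-2.70 ± 0.42, adjusted p = 2.4e-03). In the *Prrx1*-led cluster the Hox 5 to 8 group had *Cdx2* at 63.8 and 93.9 against 27.0 and 26.2 CPM (-1.61 ± 0.15, adjusted p = 2.7e-07) and *Cdx4* at 69.2 and 151 against 45.0 and 41.3 CPM (-1.40 ± 0.22), and in its Hox 10 to 13 group neither passed (0.02 ± 0.05 and -0.06 ± 0.05). Over all classes, 17 of 36 pairs passed within Hox 9 (7.72% of all genes), 11 of 23 within Hox 5 to 8 (2.82%), 4 of 15 within Hox 10 to 13 (5.23%) and, by edgeR, 0 of 3 within Hox 1 to 4 or none (0.999%), of which 1 had an unadjusted p under 0.05.

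Male and female cells of a pool came from different embryos, so a difference between them is also one between sets of embryos, and sex and embryo cannot be told apart. Over both genotypes, 1 of 30 tests of female against male cells passed (*Cdx4* in Mesenchyme 2-like cells, 1.03 ± 0.08, adjusted p = 5.7e-03), against 1.25% of all genes. Within WT, 15 of 29 passed (16.7% of all genes), and within *Grhl3*-null 15 of 30 passed (10.7%), often in opposite directions. *Cdx1* in NMP-like cells was 176 and 179 CPM in female and 130 and 127 CPM in male WT cells, but 92.3 and 89.9 CPM in female and 142 and 137 CPM in male *Grhl3*-null cells. The lower *Cdx1* of *Grhl3*-null NMP-like cells was thus seen in female cells, and male cells alone gave a log2 fold change of 0.12 (adjusted p = 0.20). The genotype difference of *Cdx1* in female cells minus that in male cells was -1.11 ± 0.05 (log2, adjusted p = 8.0e-18), in a test that 13.7% of genes of the class passed.

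In the neuroepithelium-like class the genotype difference of every member differed by sex. Female against male cells over both genotypes passed for none of the 3 genes there (adjusted p = 0.78, 0.063 and 0.58 for *Cdx1*, *Cdx2* and *Cdx4* by edgeR). *Cdx1* was 117 and 92.9 CPM in male and 21.0 and 17.6 CPM in female WT cells, and 47.2 and 41.2 CPM in male and 70.3 and 71.1 CPM in female *Grhl3*-null cells. *Cdx2* was 149.5 and 123 CPM in male and 208 and 217 CPM in female WT cells, against 55.8 and 55.4 CPM in male and 142 and 127 CPM in female *Grhl3*-null cells, so that it was lower in *Grhl3*-null in either sex. *Cdx4* was 191 and 181 CPM in male WT and 58.3 and 53.6 CPM in male *Grhl3*-null cells, whereas in female cells it was 173 and 178 CPM against 156 and 173 CPM, and these overlapped. The WT male cells numbered 60 and 68 and the *Grhl3*-null female cells 86 and 84, the smallest of these groups. Female minus male genotype differences were 3.03 ± 0.13 for *Cdx1*, 0.52 ± 0.10 for *Cdx2* and 1.55 ± 0.09 for *Cdx4*, in a test that 28.6% of genes of the class passed.

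The split of the family in SE/NPB-like cells was a split by sex as well. *Cdx4* was 113 and 123 CPM in female WT and 206 and 214 CPM in female *Grhl3*-null cells, but 211 and 139 CPM in male WT and 147 and 140.1 CPM in male *Grhl3*-null cells, which overlapped. *Cdx2* was 308 and 341 CPM against 183 and 200.1 CPM in male cells, and 278 and 296 CPM against 287 and 304 CPM in female cells. *Cdx1* was 79.3 and 98.6 against 52.6 and 52.4 CPM in female cells (-0.82 ± 0.09) and 45.9 and 47.9 against 77.2 and 69.6 CPM in male cells (0.66 ± 0.10). Thus the higher *Cdx4* was seen in female cells and the lower *Cdx2* in male cells, and *Cdx1* went opposite ways. Gut-like cells had the lower *Cdx4* in male cells (188 and 163 against 86.5 and 93.6 CPM) and 154 and 182 against 136 and 156 CPM in female cells. Over the 30 pairs of gene and class, 16 differed by sex in their genotype difference (6 for *Cdx1*, 4 for *Cdx2*, 6 for *Cdx4*), against 13.9% of all genes and classes. The share of all genes was 24.8% in Mesenchyme 2-like, 15.6% in paraxial mesoderm-like, 15.4% in *Prrx1*-led, 11.8% in SE/NPB-like, 11.4% in *Tbx4*-led, 8.66% in gut-like, 6.26% in somitic mesoderm-like and 1.37% in endothelium-like cells.

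**Figure D5:**
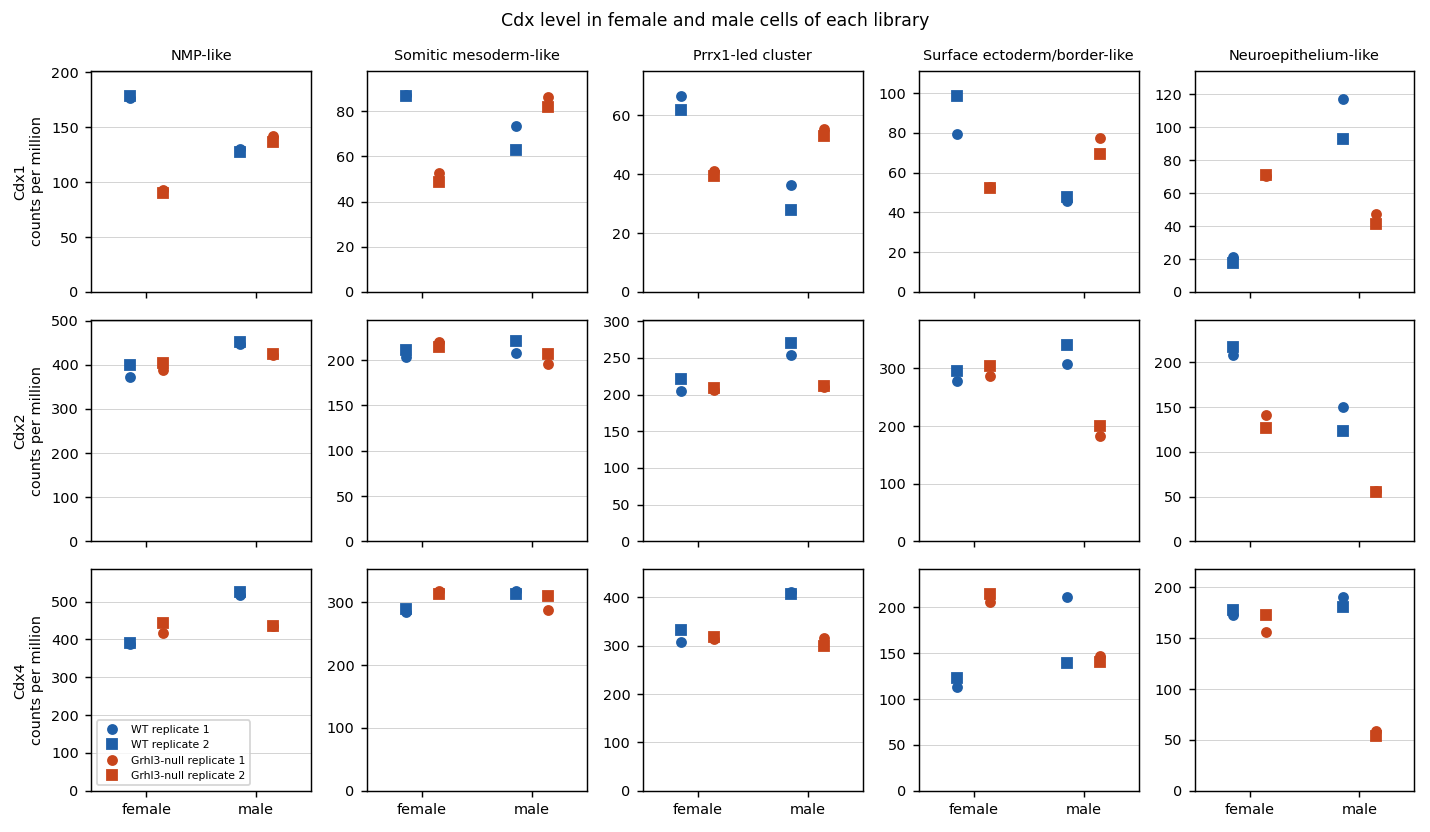
Level of the Cdx genes (CPM) in female and male cells of 5 classes, with 1 point per library (blue WT, orange *Grhl3*-null). In NMP-like cells *Cdx1* of *Grhl3*-null is lower than WT in female cells (92.3 and 89.9 against 176 and 179 CPM) and slightly higher in male cells (142 and 137 against 130 and 127 CPM).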

How the data were processed

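The deposited values were UMI counts per gene and cell, made by the authors with Cell Ranger 3.0.0, per the file headers, against mm10. Cells were kept with at least 3000 genes, 7500 UMIs and at most 7% mitochondrial UMIs. The LacZ rows, which are no mouse genes and gave 15 and 25 UMIs in the Grhl3-null libraries, were left out. Cells were clustered with Seurat 5.3.0 and sctransform 0.4.2 (3000 variable features without the Cdx genes, 30 components, 20 neighbours, resolution 0.4) and named from markers. The doublet caller marked at most 0.0627% of cells per library and so was not relied on. Leaving out the 5% with the highest scores was an alternative.

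Counts summed per class (at least 20 cells in every library) were tested with edgeR 4.0.16 (TMM, filterByExpr, quasi-likelihood), as a model of genotype, with Benjamini-Hochberg adjustment over all genes of a class. DESeq2 1.42.0 was an alternative. Cells were called male from 2 or more UMIs over 4 Y-linked genes with *Xist* not above 2, and female from 3 or more *Xist* UMIs with no more than 1 from the Y. The scripts were tested on simulated data. Replicate libraries differed beyond counting noise (chi-square per degree of freedom 7.77 in WT and 13.6 in Grhl3-null). Intervals and shares cover counting error only. Genes named were the Cdx genes and members of lists of Hox genes, upstream signals, caudal progenitor genes, Cdx targets and markers of other cells. The genes, lists and tests were chosen with earlier results of these data known.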

Additional observations from a re-analysis of the deposited data

Results flagged for a closer look

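The genotype difference of *Cdx* genes was not the same in every class. As a log2 difference from that in NMP-like cells, with adjusted p from 3.8e-25 to 0.036 in edgeR's interaction test, *Cdx1* gave 1.0 in endothelium-like, 1.18 in intermediate mesoderm-like, 0.67 in Mesenchyme 2-like, 0.90 in neuroepithelium-like, 0.55 in paraxial mesoderm-like and 0.54 in Prrx1-led cells, and -0.92 in Lefty2-led cells. *Cdx2* gave -1.1 in Lefty2-led, -0.94 in Mesenchyme 2-like, -1.4 in neuroepithelium-like, -0.45 in notochord-like and -0.31 in SE/NPB-like cells, and 0.35 in paraxial mesoderm-like cells. *Cdx4* gave -0.57 in gut-like, -1.14 in Lefty2-led, -1.57 in Mesenchyme 2-like and -1.11 in neuroepithelium-like cells, and 0.46 in paraxial mesoderm-like and 0.35 in SE/NPB-like cells.

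The genotype difference also differed between female and male cells, which come from different embryos. As female minus male on the log2 scale, *Cdx1* gave -1.11 in NMP-like, -1.43 in Prrx1-led, -1.09 in somitic mesoderm-like and -1.48 in SE/NPB-like cells, and 3.03 in neuroepithelium-like and 0.71 in paraxial mesoderm-like cells. *Cdx2* gave 1.62 in Mesenchyme 2-like, 0.52 in neuroepithelium-like, 0.27 in Prrx1-led and 0.73 in SE/NPB-like cells. *Cdx4* gave 0.83 in gut-like, 0.37 in NMP-like, 1.55 in neuroepithelium-like, 0.39 in Prrx1-led, 0.20 in somitic mesoderm-like and 1.03 in SE/NPB-like cells. Sex and embryo cannot be told apart in these pools.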

How the results depend on the processing

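Of 42 pairs of gene and class, 23 passed, and 20 to 24 did when 1 library was left out. Under DESeq2 17 passed. At resolution 0.8 14 of 33 passed, in male cells 14 of 30 and in female cells 12 of 32. In Hox 5 to 8 cells 11 of 23 passed, in Hox 10 to 13 cells 4 of 15 and in cells with Hox 1 to 4 or none 0 of 3. Not all of these were the pairs that passed before. In male cells 8 of the 18 earlier passes that could be tested passed in the same direction and 3 in the opposite one. In female cells 9 of 18 passed in the same direction. At resolution 0.8 it was 13 of 17, with 1 opposite, and in Hox 5 to 8 cells 9 of 16, with 1 opposite. These settings test fewer classes and cells. With the replicate block 24 passed, but the numbers are no pairing: deviations of same-numbered libraries had a correlation of 0.0081 over all cells and 0.022 in NMP-like cells.

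Log2 fold changes in NMP-like cells were -0.22 for *Cdx4* and -0.22 for *Cdx2* with log-normalised counts, both past the threshold. In male cells *Cdx4* gave -0.25 (past the threshold) and *Cdx1* 0.12, and in female cells *Cdx4* gave 0.12 (past the threshold) and *Cdx2* 0.014. Other signs turned as follows. *Cdx1* gave -0.0020 (Cdx genes kept in the clustering) and -0.094 (Hox 5 to 8) in intermediate mesoderm-like cells, -0.27 (resolution 0.8), -1.18 (male) and -0.051 (Hox 9) in neuroepithelium-like cells, 0.31 (male) in somitic cells, and 0.66 (male) and 0.63 (Hox 10 to 13) in SE/NPB-like cells. *Cdx2* gave -0.10 (log-normalised), -0.13 (female), -0.10 (Hox 1 to 4 or none) and -0.11 (Hox 5 to 8) in paraxial cells, 0.23 (Hox 10 to 13) in Mesenchyme 2-like cells and 0.023 (Hox 10 to 13) in Prrx1-led cells. *Cdx4* gave -0.27 (male) and -2.70 (Hox 5 to 8) in SE/NPB-like cells. The cause was not tested.

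Female and male cells differed for 15 pairs in WT libraries alone and 15 in Grhl3-null libraries alone, against 1 over both. The WT level of *Cdx1* in NMP-like cells was 156.82 CPM with Cdx genes kept, 155.85 at resolution 0.8, 155.7 with log-normalised counts, 157.88 with 50 components, 161.55 without doublets, 157.51 at a mitochondrial limit of 5% and 160.16 as a mean over cells. *Cdx4* was 428.98, 412.89 (log-normalised), 426.03 (50 components), 437.53 (without doublets), 429.19 (5%) and 444.27 CPM (mean over cells), and *Cdx2* was 383.14 CPM (log-normalised). All 3 genes were found together in 80.3% of cells thinned to 20000 UMIs and 90.9% unthinned. From Hox 5 to 8 to Hox 10 to 13 in Prrx1-led WT cells, thinning to 20000 UMIs gave log2 changes of -2.03, 2.47 and 3.37 for *Cdx1*, *Cdx2* and *Cdx4*.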

Other observations

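The remaining genes of the ParaHox family were nearly silent in these cells. *Gsx1* and *Gsx2*, known from the developing brain and spinal cord, reached at most 0.083 CPM in any class and library. *Pdx1*, known from the pancreas and duodenum, reached at most 1.29 CPM in a whole class, in the Tbx4-led cluster, and at most 4.02 CPM in a sub-cluster of the gut, in 12 cells of Grhl3-null replicate 2.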
